A study of Mus musculus with 6 samples.

Results

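The unfolded protein response and the secretory pathway were followed in CD4 T cells of the mouse lung through 40 genes, listed by name: the sensors of endoplasmic reticulum (ER) stress, the ER chaperones and disulfide isomerases, the machinery of ER-associated degradation, and the translocon, signal peptidase and COPII coat of the secretory route. Of these, 38 were measured among 22180 genes, each through the brightest probe set that carried only that gene's symbol. Pdia4 and Srp54a were not analysed here. Wild-type mice had received house dust mite (HDM), an allergen that provokes airway inflammation, or the vehicle PBS, by sensitisation and challenge. Lung cells were digested and sorted as CD45+ CD4+ cells negative for CD11b and F4/80, and 3 HDM and 3 PBS samples were each hybridised to 1 whole-transcript Affymetrix array. The samples are titled as biological replicates. Neither the labels nor the design text states the mice per sample, their age and strain, or doses and days, so the p-values cover only the variation among these 6 arrays, which may be technical. All values are log2 signals after RMA, a scale on which signals of different probe sets are not compared with each other.

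Proteins that a cell secretes or displays enter the ER through the Sec61 channel, are folded there with the help of chaperones and disulfide isomerases, and leave in COPII vesicles, while misfolded ones are sent back to the cytosol for degradation. When unfolded proteins accumulate, IRE1, PERK and ATF6 in the ER membrane start the unfolded protein response: IRE1 splices the Xbp1 transcript, PERK slows translation and lets ATF4 be made, and ATF6 is cut to release a transcription factor. Plasma cells depend on this system for antibody secretion, and T cells that secrete cytokines use it too. A gene-level signal shows the amount of transcript and not sensor activity, and a single value for Xbp1 does not separate its spliced from its unspliced form.

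Promoters of chaperone genes can hold elements bound by factors of this response. Stretches that match such elements are printed here because the members that share them are compared further on. RefSeq promoter windows on build GRCm38.p6, each holding 250 bases before and 50 after a gene's start, were matched for 34 of the 40 genes by symbol (36 windows). The ER stress element, written as CCAAT, 9 bases of any kind and CCACG, to which ATF6 binds together with NF-Y, was searched on both strands, with its CCAAT and CCACG parts at the fixed spacing. It lay in the windows of 9 of the 34 genes, and in 39 of all 32851 windows (0.119%). The stretches below run 5′ to 3′ on the gene's strand, with the CCAAT and CCACG letters in capitals, which read CGTGG and ATTGG where the element lies on the opposite strand.
Hspa5 (chr2:34772015-34772053, + strand): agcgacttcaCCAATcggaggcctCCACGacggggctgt
Hsp90b1, upper site (chr10:86705628-86705666, − strand): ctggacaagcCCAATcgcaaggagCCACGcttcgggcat
Hsp90b1, lower site (chr10:86705523-86705561, − strand): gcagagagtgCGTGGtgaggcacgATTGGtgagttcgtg
Calr (chr8:84847065-84847103, − strand): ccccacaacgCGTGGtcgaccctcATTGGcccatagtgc
Canx (chr11:50325790-50325828, − strand): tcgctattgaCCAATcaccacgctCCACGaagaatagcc
Pdia6 (chr12:17266481-17266519, + strand): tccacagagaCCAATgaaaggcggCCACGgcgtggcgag
Dnajc3 (chr14:118937817-118937855, + strand): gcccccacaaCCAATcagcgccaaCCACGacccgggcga
Creld2 (chr15:88819510-88819548, + strand): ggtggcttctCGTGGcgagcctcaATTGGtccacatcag
Syvn1 (chr19:6046522-6046560, + strand): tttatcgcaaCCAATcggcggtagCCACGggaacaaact
Derl3 (chr10:75893232-75893270, + strand): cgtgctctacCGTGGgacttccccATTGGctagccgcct

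A related element, ERSE-II, spelled ATTGG, 1 base of any kind and CCACG, was found in the windows of Herpud1 and Dnajb11 and in 0.0365% of all windows, and that of Dnajb11 lay behind the gene's start. An amino acid and stress response element bound by ATF4, searched as TGATGNAA, was found for Chac1, Trib3 and Herpud1 and in 3.97% of all windows, and that of Trib3 lay behind the start. TGACGTGG, a site of XBP1, was found for Sec24d and in 0.676% of all windows. The short CCACG core on its own, which every ER stress element and ERSE-II also holds, was in 32.8% of all windows and in those of 26 of the 34 genes. Herpud1, a membrane protein of ER-associated degradation, held both an ERSE-II and an ATF4 element, shown with their fixed letters in capitals beside the ATF4 element of Chac1 and the XBP1 site of Sec24d.
Herpud1, ERSE-II (chr8:94386367-94386397, + strand): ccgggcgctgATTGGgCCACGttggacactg
Herpud1, ATF4 element on the opposite strand (chr8:94386307-94386334, + strand): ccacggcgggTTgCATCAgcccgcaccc
Chac1, ATF4 element on the opposite strand (chr2:119351039-119351066, + strand): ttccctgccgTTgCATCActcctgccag
Sec24d, XBP1 site (chr3:123267460-123267487, + strand): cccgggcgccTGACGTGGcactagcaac

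The comparison of HDM with PBS asked whether transcripts of this system differ between lung CD4 T cells of allergen-treated and control mice. None of the 38 genes passed the test, limma with Benjamini-Hochberg adjustment over the 22180 genes at 0.05, where 2.39% of all genes were higher and 1.56% lower in HDM (3.95% in all). At an unadjusted p below 0.05, 4 were higher and 5 lower (8.67% and 9.17% of all genes, and 17.8% in either direction, beside 23.7% of the members). The replicate numbers changed this. The labels do not say what these numbers mean, and the check given with the processing supports the pairing of the arrays numbered 2 only weakly. With the number as a block 3 members were higher (Atf6, Sdf2l1 and Spcs2) and 5 lower (Eif2ak3, Xbp1, Atf4, Dnajb9 and Syvn1), where 5.95% and 6.01% of all genes were. Those 8 genes were 21.1% of the 38, against 12.0% of all genes called in either direction with the block. Without both arrays numbered 3, 4 were higher and 5 lower, where 5.64% and 5.98% of all genes were.

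The median log2 difference, HDM minus PBS, was −0.013 over the members and −0.0063 over all genes, and the members' differences ranged from −0.71 (Eif2ak3) to 0.53 (Atf6). The median size of a difference was 0.134 for the members and 0.114 for all genes. The HDM values lay entirely above the PBS values for 7 members and below them for 4, against 10.8% and 11.8% of all genes. Taken in either direction, these 11 were 28.9% of the members, beside 22.6% of all genes. All 3 same-numbered pairs were higher in HDM for 10 members and lower for 9, where 21.6% and 24.1% of all genes were. For 25 of the 38 genes the 95% interval of the difference lay within 0.5 log2 units of 0, and for 36 within 1 unit, shares of 65.8% and 94.7% beside 71.5% and 95.0% of all genes. Eif2ak3 and Dnajb9, whose intervals reached to −1.16 and −1.08, were the pair outside the wider limit.

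**Figure D1:**
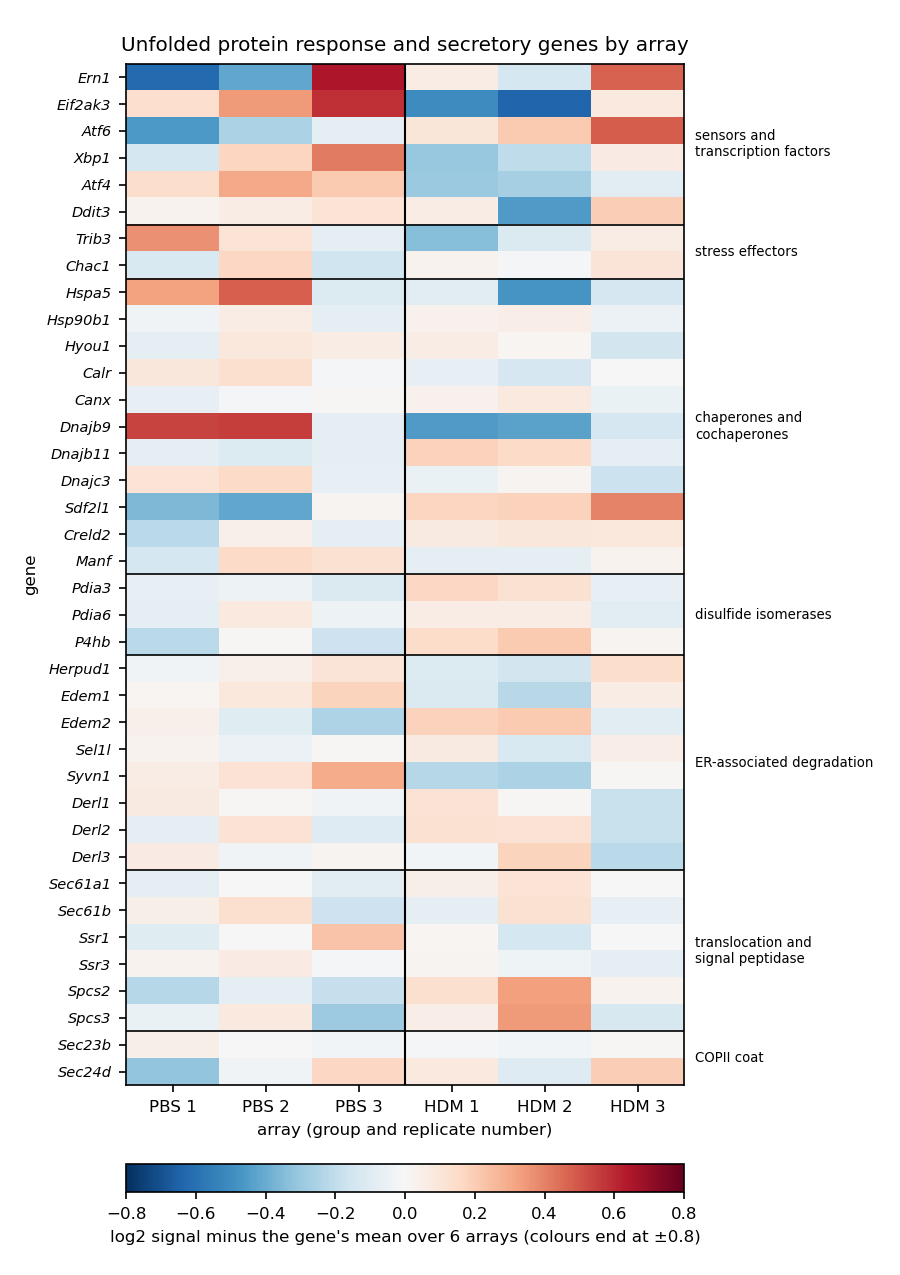
Each row is 1 of the 38 measured genes and each column 1 array, 3 PBS on the left and 3 HDM on the right, with genes ordered by role. Colour gives the log2 signal minus that gene's mean over the 6 arrays, and most rows are pale. Eif2ak3, Atf6, Dnajb9 and Sdf2l1 are among the rows whose groups do not overlap. Of these, HDM replicate 3 of Eif2ak3 and PBS replicate 3 of Dnajb9 and of Sdf2l1 lie on the other group's side of the gene's mean.

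**Figure D2:**
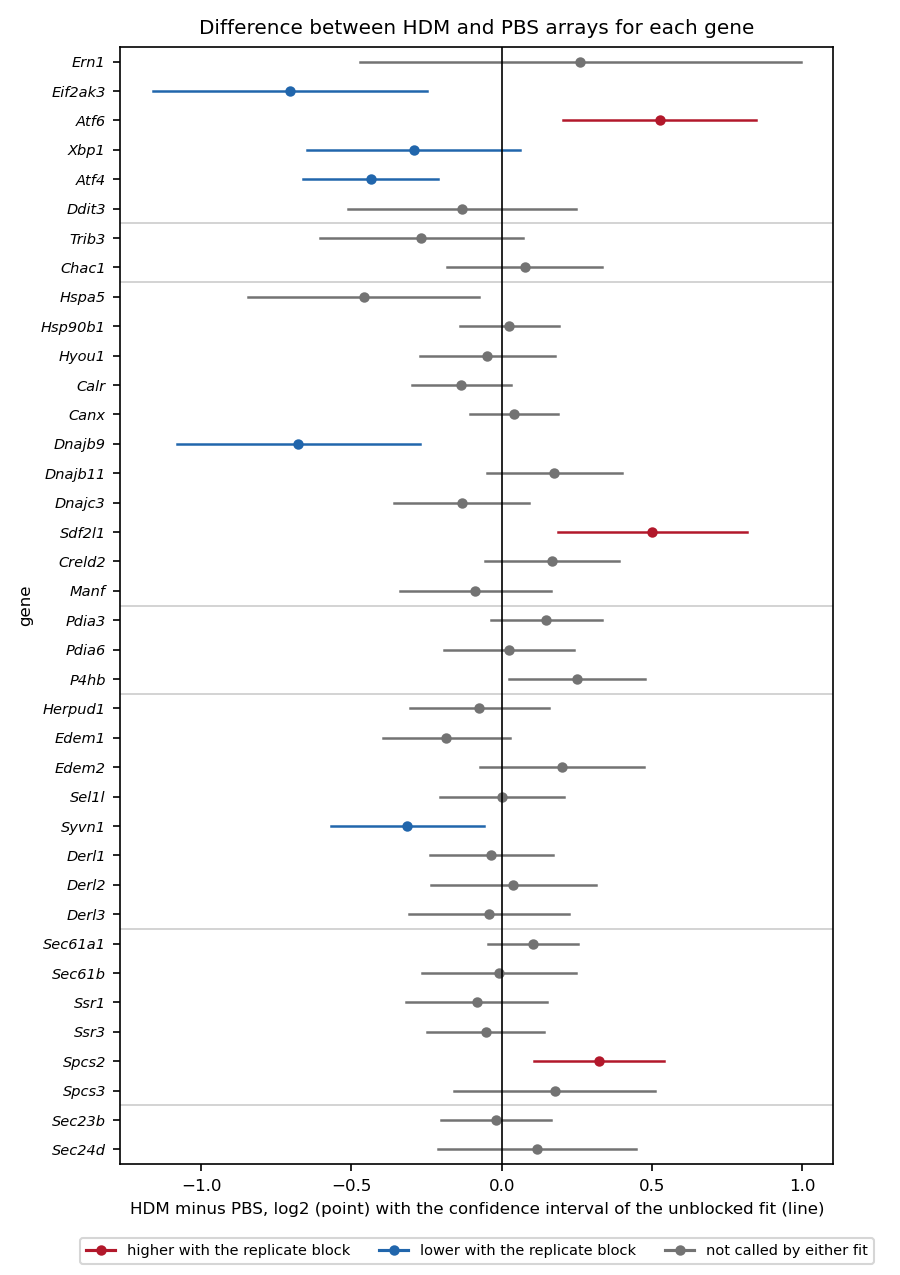
Points give the HDM minus PBS difference (log2) of each gene and lines its 95% interval in the fit without a block, with 3 arrays in each group. The genes called with the replicate block are coloured, 3 higher in red and 5 lower in blue; none of the 38 was called without it.

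Among the 3 stress sensors the array values went in different directions. Atf6, the sensor that becomes a transcription factor after cleavage, had signals of 8.72, 8.92 and 9.10 in PBS replicates 1, 2 and 3 and 9.27, 9.38 and 9.66 in the HDM replicates. The groups did not overlap, and same-numbered arrays differed by 0.55, 0.46 and 0.56. The difference was 0.53 ± 0.14 (SE, n = 3 per group), a 1.44-fold higher signal, with an adjusted p of 0.0883, and 0.00512 with the block.

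Eif2ak3 encodes PERK, the kinase that phosphorylates the initiation factor eIF2 and so lowers protein synthesis. Its signals were 9.56, 9.77 and 10.01 in PBS and 8.92, 8.79 and 9.50 in HDM. All HDM values lay below the PBS values, the nearest by a small margin, and the pair differences were −0.63, −0.98 and −0.51. The difference was −0.71 ± 0.20 (SE), a 1.63-fold lower signal (adjusted p = 0.103, and 0.00591 with the block).

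Ern1, which encodes the splicing sensor IRE1 alpha, had 8.99, 9.20 and 10.26 in PBS and 9.68, 9.47 and 10.09 in HDM. The groups overlapped, with the arrays numbered 3 the highest of both, and the pair differences of 0.68, 0.27 and −0.17 did not share a sign. The difference of 0.26 ± 0.32 passed neither fit (adjusted p = 0.751, and 0.329 with the block). Without both arrays numbered 3 it was 0.48 and passed (adjusted p = 0.0292).

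The transcription factors downstream of the sensors had no positive difference. Atf4, the factor whose translation PERK favours, had 9.31, 9.47 and 9.38 in PBS and 8.88, 8.91 and 9.08 in HDM, without overlap. The difference was −0.44 ± 0.10, a 1.35-fold lower signal, and just missed the threshold (adjusted p = 0.0525, and 0.0165 with the block). Since ATF4 is regulated largely at translation, its transcript is no measure of its protein.

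Xbp1, the transcription factor made from the message that IRE1 splices, had 10.91, 11.22 and 11.47 in PBS and 10.75, 10.85 and 11.12 in HDM. The groups overlapped, while the pair differences of −0.16, −0.37 and −0.35 were all negative. The difference was −0.29 ± 0.15 (adjusted p = 0.381, and 0.0301 with the block). Ddit3, which encodes the factor CHOP of prolonged stress, had 8.20, 8.22 and 8.28 in PBS and 8.22, 7.71 and 8.36 in HDM. HDM replicate 2 alone stood low, and the difference of −0.13 ± 0.16 passed neither fit (adjusted p = 0.759, and 0.599 with the block).

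Stress effectors that ATF4 and CHOP induce were measured through a pair of genes. Trib3, a pseudokinase, had 6.91, 6.66 and 6.47 in PBS and 6.20, 6.43 and 6.60 in HDM, with overlap between the groups (−0.27 ± 0.15, adjusted p = 0.406). Chac1, an enzyme that degrades glutathione, had 6.50, 6.79 and 6.46 in PBS and 6.65, 6.61 and 6.73 in HDM (0.08 ± 0.11, adjusted p = 0.799). Neither passed with the block (0.347 and 0.75), and the 95% interval for Chac1 ran from −0.18 to 0.33.

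**Figure D3:**
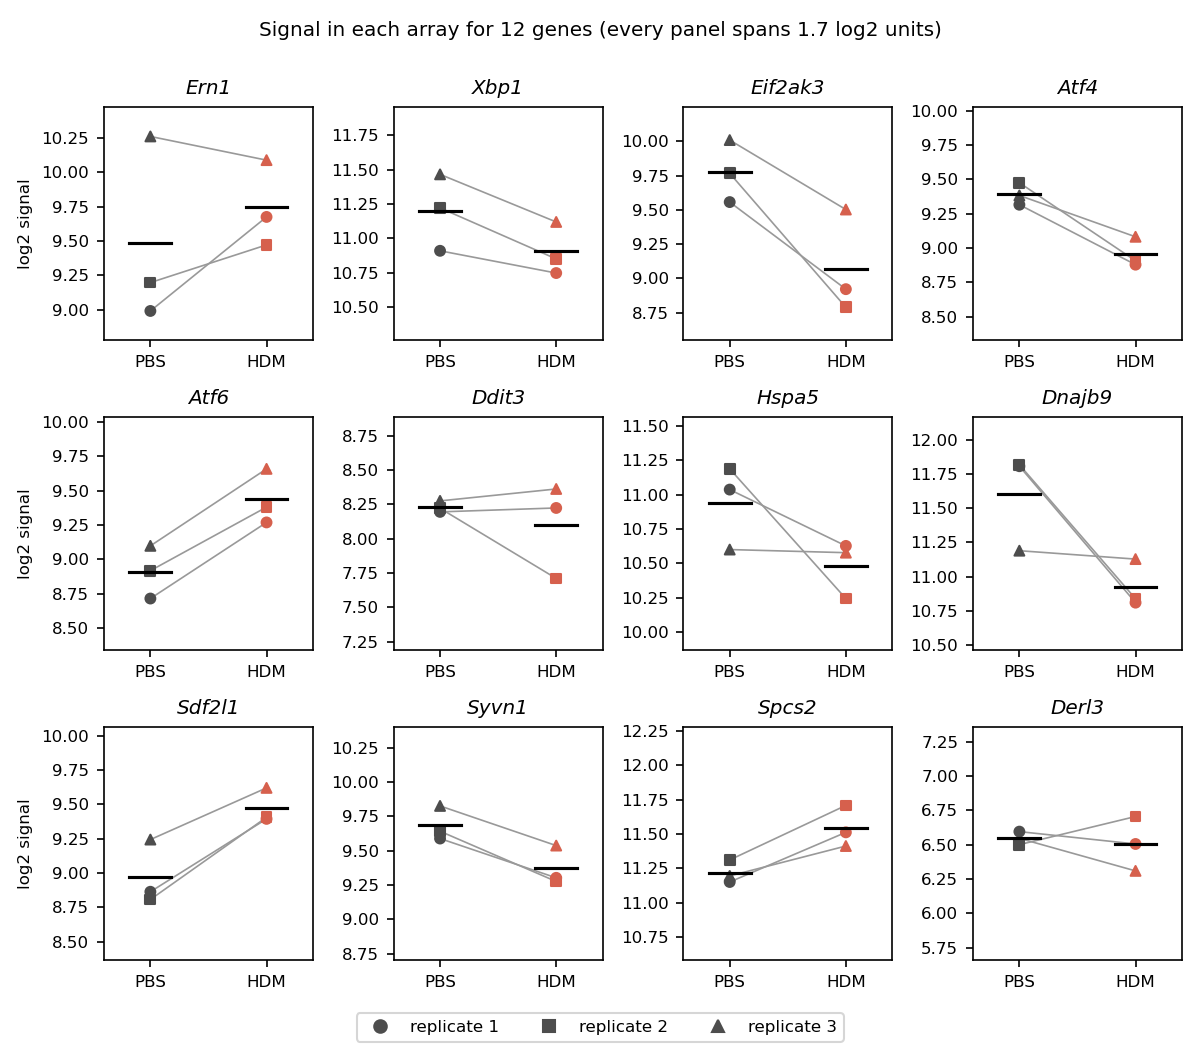
Each panel gives the log2 signal of 1 gene in the 6 arrays, with lines joining arrays of the same replicate number, marker shapes giving the number and black bars the group means; every panel spans the same range. The 3 lines run in parallel for Atf6 and Syvn1, while for Dnajb9 and Hspa5 the lines of the arrays numbered 1 and 2 are steep and that of the arrays numbered 3 is nearly flat.

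The 11 ER chaperones and cochaperones did not move together: 5 differences were positive and 6 negative, with a median of −0.05. Hspa5, which encodes the main ER chaperone BiP and whose promoter element is printed above, had 11.04, 11.19 and 10.60 in PBS and 10.63, 10.24 and 10.58 in HDM. PBS replicate 3 lay among the HDM values, so the groups overlapped. The difference was −0.46 ± 0.17 (adjusted p = 0.193, and 0.102 with the block), with pair differences of −0.41, −0.95 and −0.02, and without both arrays numbered 3 it was −0.68 and passed (adjusted p = 0.0121).

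Dnajb9, the cochaperone ERdj4, which hands misfolded proteins to degradation and holds IRE1 inactive through BiP, had 11.81, 11.82 and 11.19 in PBS and 10.81, 10.84 and 11.13 in HDM. The groups did not overlap, but the arrays numbered 3 were nearly alike: the pair differences were −0.99, −0.98 and −0.06. The difference was −0.68 ± 0.18, a 1.60-fold lower signal (adjusted p = 0.0833, and 0.0453 with the block). It was −0.98 without both arrays numbered 3 (adjusted p = 0.000161), a larger difference that rests on 2 arrays per group.

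Sdf2l1, a partner of BiP and its cochaperones that slows aggregation in the ER, went the other way, with 8.86, 8.81 and 9.24 in PBS and 9.39, 9.41 and 9.62 in HDM. All HDM values lay above the PBS values. The difference was 0.50 ± 0.14, a 1.42-fold higher signal (adjusted p = 0.0949, and 0.00845 with the block), with pair differences of 0.53, 0.60 and 0.38.

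The promoters of these 3 chaperone genes, picked with their differences known, are shown whole before the start. Whether these sequences go with the direction of a difference was not tested. CCACG cores on either strand are in capitals: 1 for Hspa5, inside its ER stress element, 2 for Dnajb9 and 3 for Sdf2l1, and the full ER stress element was in that of Hspa5 only.
Hspa5 (chr2:34771840-34772089, + strand): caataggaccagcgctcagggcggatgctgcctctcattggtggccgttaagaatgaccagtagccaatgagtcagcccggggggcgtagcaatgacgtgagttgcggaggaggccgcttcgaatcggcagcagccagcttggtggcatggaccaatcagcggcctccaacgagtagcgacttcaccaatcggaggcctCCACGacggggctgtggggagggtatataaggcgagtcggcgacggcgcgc
Dnajb9 (chr12:44210069-44210318, − strand): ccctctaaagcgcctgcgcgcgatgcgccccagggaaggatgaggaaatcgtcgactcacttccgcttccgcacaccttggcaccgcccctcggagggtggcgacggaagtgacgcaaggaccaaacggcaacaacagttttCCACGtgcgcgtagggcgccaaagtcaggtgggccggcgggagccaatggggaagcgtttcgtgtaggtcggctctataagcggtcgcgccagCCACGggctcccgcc
Sdf2l1 (chr16:17132384-17132633, − strand): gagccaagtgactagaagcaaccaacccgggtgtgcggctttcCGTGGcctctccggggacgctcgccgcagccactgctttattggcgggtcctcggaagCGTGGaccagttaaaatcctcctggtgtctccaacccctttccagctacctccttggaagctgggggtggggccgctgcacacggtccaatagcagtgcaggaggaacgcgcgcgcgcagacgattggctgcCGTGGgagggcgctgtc

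The other 8 chaperone genes had differences between −0.13 and 0.18, and none passed either fit. Hsp90b1, the ER form of the HSP90 chaperone, had 11.25, 11.33 and 11.21 in PBS and 11.31, 11.33 and 11.23 in HDM, a difference of 0.03 with a 95% interval from −0.14 to 0.19. Canx, the membrane-bound lectin chaperone calnexin, differed by 0.04 (interval −0.11 to 0.19), and Calr, its soluble relative calreticulin, by −0.13 (−0.30 to 0.03). The intervals of these 3 chaperone genes leave room for differences of at most 0.30 log2 units in either direction.

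Dnajb11, the cochaperone ERdj3, and Creld2, a secreted protein of the stress response, had HDM values entirely above the PBS values, with differences of 0.18 ± 0.10 and 0.17 ± 0.10. Neither passed with the block (adjusted p = 0.24 and 0.247). Dnajc3, the cochaperone P58IPK, differed by −0.13 ± 0.10, Manf, a secreted neurotrophic factor of the ER, by −0.09 ± 0.11, and Hyou1, a nucleotide exchange factor for BiP, by −0.05 ± 0.10.

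The 3 measured disulfide isomerases had positive differences. P4hb, which encodes protein disulfide isomerase itself, had 9.60, 9.82 and 9.65 in PBS and 9.96, 10.02 and 9.83 in HDM, groups that did not overlap by a narrow margin (0.25 ± 0.10, adjusted p = 0.229, and 0.0676 with the block). Pdia3, the isomerase that works with calnexin and calreticulin, differed by 0.15 ± 0.08 and Pdia6 by 0.02 ± 0.09.

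Of the 8 genes of ER-associated degradation, Syvn1 was the one called with the block. It encodes HRD1, the ubiquitin ligase of this pathway, and had 9.59, 9.64 and 9.83 in PBS and 9.30, 9.28 and 9.54 in HDM, below every PBS value. Its pair differences of −0.29, −0.37 and −0.29 were alike, and the difference was −0.31 ± 0.11 (adjusted p = 0.18, and 0.0288 with the block). Sel1l, the adaptor that holds HRD1 in its complex, had 9.71, 9.63 and 9.69 in PBS and 9.75, 9.56 and 9.73 in HDM (0.0017 ± 0.0896), with an interval from −0.21 to 0.21.

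The mannosidase-like proteins that mark glycoproteins for degradation differed in sign: Edem1 by −0.19 ± 0.09 and Edem2 by 0.20 ± 0.12, neither past a threshold. Herpud1, which scaffolds the HRD1 complex, differed by −0.07 ± 0.10. The derlins, which help move proteins out of the ER, had differences of −0.03 (Derl1), 0.04 (Derl2) and −0.04 (Derl3). Derl3, a gene that plasma cells express strongly, had 6.59, 6.50 and 6.55 in PBS and 6.50, 6.70 and 6.31 in HDM, so the groups overlapped.

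For entry into the ER, Spcs2, a subunit of the signal peptidase that removes signal peptides, stood apart from the other 5 measured genes. It had 11.15, 11.31 and 11.19 in PBS and 11.51, 11.71 and 11.41 in HDM, with no overlap (0.33 ± 0.09, a 1.25-fold higher signal, adjusted p = 0.111, and 0.016 with the block). A second, dimmer Spcs2 probe set differed by only 0.10 ± 0.10. Spcs3, another subunit, differed by 0.18 ± 0.15 and passed neither fit.

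Sec61a1, the pore of the translocon, differed by 0.10 ± 0.06 and its HDM values stood just above the PBS values, while Sec61b, a small subunit, differed by −0.01 ± 0.11. Ssr1 and Ssr3, subunits of the translocon-associated TRAP complex, differed by −0.08 ± 0.10 and −0.05 ± 0.08. The dimmer probe set of Ssr1 had the opposite sign (0.25 ± 0.15). At the exit from the ER, the COPII coat genes Sec23b and Sec24d differed by −0.02 ± 0.08 and 0.12 ± 0.14.

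Set against their promoters, the 9 genes with an ER stress element had differences from −0.46 (Hspa5) to 0.17 (Creld2), with a median of −0.04, and 5 of the 9 were negative. The 23 measured members whose windows were searched and held no such element had a median of −0.01. Of the 7 searched genes called with the block, 1 held the element, Syvn1. Atf6, the other gene called with the block, was among 6 measured members with no window here (Atf6, Hyou1, Manf, Derl1, Sec61a1 and Spcs3) and was not searched. Sequence matches are descriptions of these windows and do not say which factor was bound in these cells.

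Other genes of the same pathways, listed by role, gave calls in the fit without a block. Of 120 genes outside the 38, 5 were higher and 3 lower, with a median difference of 0.01, and with the block 14 were higher and 9 lower. These are 4.17% and 2.5% of the 120, beside 2.39% and 1.56% of all genes, and 11.7% and 7.50% with the block, beside 5.95% and 6.01%. Of 16 other stress regulators 1 rose: Creb3l2, a membrane-bound transcription factor related to ATF6 that is cut in the Golgi, had 8.04, 8.21 and 8.28 in PBS and 8.75, 8.81 and 8.75 in HDM. That is a 1.51-fold rise (0.59 ± 0.10, adjusted p = 0.0184), and it lost the call without either PBS or either HDM array numbered 1 or 2 (adjusted p of up to 0.0936). In this list the block called 2 higher and 1 lower.

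Of 25 target genes of ATF4, 2 rose and the list's median was 0.02. The block called 2 higher and 3 lower, the latter Sesn2 (−0.61), Slc7a1 (−0.41) and Slc7a5 (−0.39). Ddit4, which encodes the mTORC1 inhibitor REDD1 and also answers to hypoxia and glucocorticoids, had 8.38, 8.53 and 7.88 in PBS and 9.17, 9.61 and 9.36 in HDM (1.12 ± 0.19, a 2.17-fold rise, adjusted p = 0.0186). Asns, asparagine synthetase, had 7.57, 7.75 and 7.53 in PBS and 8.12, 8.06 and 8.08 in HDM (0.47 ± 0.10, adjusted p = 0.041). Both groups of values stood clear of each other for Ddit4 and Asns, while Atf4 itself was at a lower signal in HDM. With PBS replicate 1, HDM replicate 1 or HDM replicate 2 left out, Ddit4 no longer passed (adjusted p as high as 0.0861), and Asns without any array other than HDM replicate 3 (up to 0.145), with median centring (0.0538) and with all probe sets tested (0.0657).

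In oxidative folding, 1 of 13 genes rose, Ero1a, the oxidase that recharges protein disulfide isomerase and that hypoxia induces. It had 10.46, 10.53 and 10.50 in PBS and 11.53, 11.40 and 10.84 in HDM (0.76 ± 0.17, a 1.69-fold rise, adjusted p = 0.0488). The call was lost without any array other than HDM replicate 3 (adjusted p of up to 0.186), without the intensity trend (0.0547), with median centring (0.0644), with its probe sets averaged (0.0532) and with all probe sets tested (0.0802). With the block 3 genes of the list rose and 1 fell.

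Of 10 subunits of the oligosaccharyltransferase, which attaches glycans to nascent chains, 1 fell: Stt3b, a catalytic subunit, from 11.53, 11.43 and 11.34 in PBS to 10.84, 10.78 and 10.78 in HDM (−0.63 ± 0.08, adjusted p = 0.00593). It kept the call without any 1 array (adjusted p of up to 0.0429). With the block 3 other subunits rose and the list's median was 0.11.

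Of 18 other genes of translocation 2 fell, and the block called 1 higher and 2 lower. Sec63, which couples BiP to the translocon, had 10.14, 10.24 and 10.21 in PBS and 9.67, 9.59 and 9.78 in HDM (−0.52 ± 0.09, adjusted p = 0.0191). Sec11a, a catalytic subunit of the signal peptidase, had 10.84, 10.94 and 10.73 in PBS and 10.38, 10.40 and 10.45 in HDM (−0.42 ± 0.08, adjusted p = 0.0327). Both lost the call without any 1 of the arrays numbered 1 or 2 (adjusted p of up to 0.111 and 0.159), and Sec11a also with all probe sets tested (0.0529).

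Of 25 genes of vesicle coats and cargo receptors, 1 rose: Lman1, the lectin ERGIC-53 that carries glycoproteins out of the ER, from 9.21, 9.19 and 9.09 in PBS to 9.88, 9.82 and 9.53 in HDM (0.58 ± 0.11, adjusted p = 0.0335), lost without any array other than HDM replicate 3 (up to 0.148), with median centring (0.0535) and with all probe sets tested (0.0552). Among these 25 genes the block called 3 higher and 1 lower. None of 13 other genes of ER-associated degradation was called in either fit (median −0.12, and 0 at an unadjusted p below 0.05). The largest differences there were −0.34 for Selenok and −0.33 for Ube2j2, an ER ubiquitin-conjugating enzyme.

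**Figure D4:**
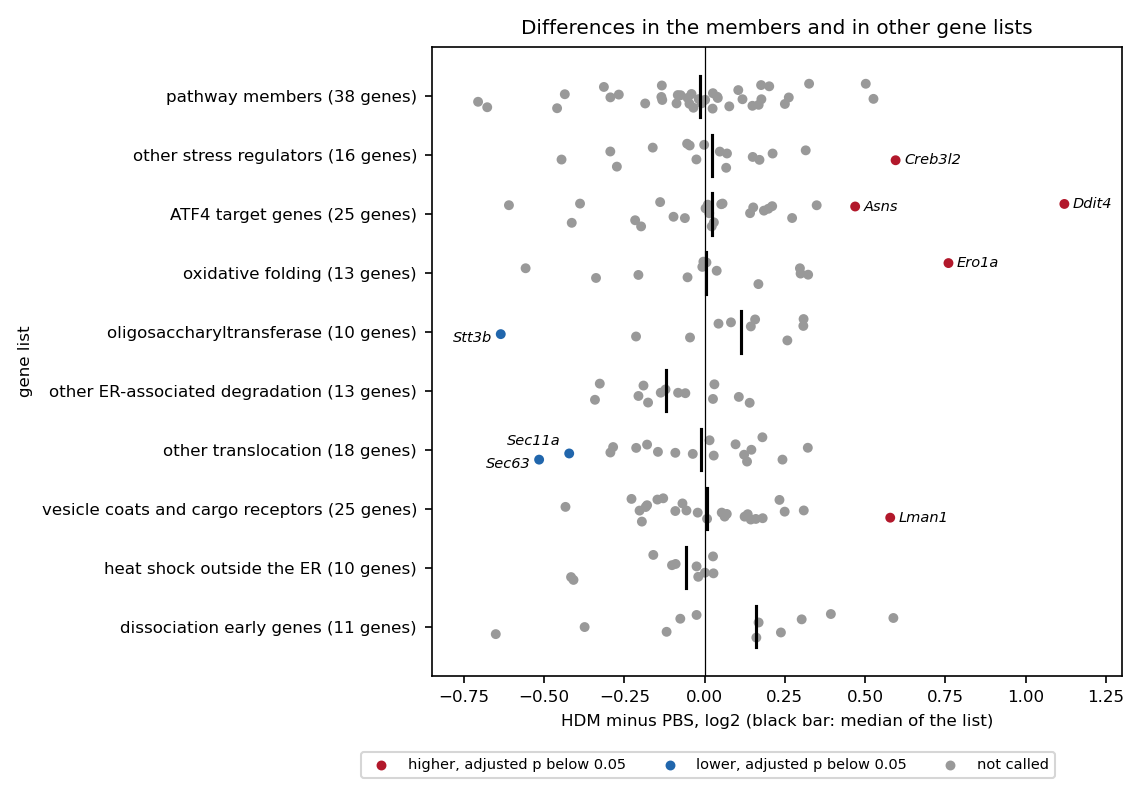
Each point is a gene, placed by its HDM minus PBS difference (log2), in the 38 members and in 9 other lists; black bars are list medians. Named points passed the fit without a block, 5 higher in red and 3 lower in blue, and the medians lie between −0.12 and 0.16.

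Heat shock genes whose proteins work outside the ER, in the cytosol or, for Hspd1 and Hspe1, in mitochondria, were counted beside them. Of 10, 0 passed in limma, 2 were lower at an unadjusted p below 0.05, and with the block 1 fell, Dnajb1 (−0.42 ± 0.10, adjusted p = 0.0569, and 0.023 with the block). Hsp90aa1 differed by −0.41 (adjusted p = 0.149). Of 11 early genes that tissue dissociation can induce, 0 passed in limma, and 1 was higher and 1 lower at an unadjusted p below 0.05. With the block 2 rose and 1 fell, with Ier2 at −0.65 and Fosb at 0.59 the largest differences.

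The sorted cells carried T cell transcripts at high signal in every array: Cd4 lay between 12.5 and 12.7 and Cd3e between 12.7 and 13.1. Of 8 CD4 T cell genes, 1 rose, the costimulatory receptor gene Icos (0.60 ± 0.08, a 1.51-fold rise, adjusted p = 0.00916), a call lost without HDM replicate 2 (adjusted p = 0.0525). With the block 3 rose (Icos, Cd3g and Cd5), and 7 of the 8 differences were positive, with a list median of 0.17 and a list mean of 12.06 to 12.09 in PBS and 12.20 to 12.31 in HDM. In bulk samples fewer cells of a type and less RNA per cell cannot be told apart, and other cell types with an active secretory pathway are therefore given with their values. Of 9 measured plasma cell genes, 1 rose, Irf4 (1.01 ± 0.18, adjusted p = 0.0227), which activated T cells express too, and with the block 3 rose and 1, Xbp1, fell. Xbp1 and Derl3 stand in both lists. The antibody joining chain gene Jchain had 5.75, 6.22 and 6.51 in PBS and 6.93, 7.37 and 8.41 in HDM (1.41 ± 0.36, adjusted p = 0.0789, and 0.00235 with the block), while Mzb1 differed by 0.11 and the plasma cell receptor gene Tnfrsf17 by 0.11. The list's mean signal ranged from 7.55 to 7.71 in PBS and from 7.79 to 8.25 in HDM.

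Of 7 B cell genes, 0 passed in limma, 0 with the block and 0 at an unadjusted p below 0.05, and their mean signal ranged from 6.86 to 7.39 in PBS and from 6.76 to 7.88 in HDM, highest in HDM replicate 3. Ms4a1 and Cd79b had the largest named differences (0.45 and 0.33). Of 12 macrophage genes, 1 rose, Chil3 (2.11 ± 0.38, adjusted p = 0.0248), and 4 with the block. The list's mean was 7.89 to 8.19 in PBS and 8.21 to 8.63 in HDM. Of the 12 differences 10 were positive and 2 negative, those of Marco (−0.18) and Itgam (−0.02). Of 7 dendritic cell genes 2 rose, Ccl17 (1.26 ± 0.11, adjusted p = 0.00249) and Itgax (1.06 ± 0.22, adjusted p = 0.038), with a list mean of 6.93 to 7.12 in PBS and 7.31 to 7.50 in HDM. The block called 2 higher and 0 lower, and the list's median difference was 0.09. Flt3, Zbtb46 and Xcr1 each differed by −0.01, and the other 4 differences were positive.

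Of 8 epithelial genes 1 rose, Cdh1 (0.82 ± 0.15, adjusted p = 0.0292), and the list mean ran from 7.78 to 8.62 in PBS and from 8.03 to 8.70 in HDM. The block called 1 higher and 1 lower, the latter Sftpc (−0.40, adjusted p = 0.0177 with the block). Scgb1a1, the abundant secretory protein of club cells, had 10.94, 12.29 and 11.69 in PBS and 11.32, 12.48 and 11.74 in HDM, lowest in the arrays numbered 1 and highest in those numbered 2. Of 8 endothelial and stromal genes all differences were negative: 1 fell, Pecam1 (−0.51 ± 0.08, adjusted p = 0.0169), and 5 fell with the block. Pecam1 had 11.61, 11.64 and 11.58 in PBS and 11.02, 11.04 and 11.25 in HDM. That list's mean was 7.61, 8.27 and 8.57 in PBS replicates 1, 2 and 3 and 7.27, 7.52 and 8.13 in the HDM replicates. It was lowest in the arrays numbered 1 and highest in those numbered 3 of each group. The means of the plasma cell and B cell lists had the same order in both groups, as did Xbp1 and Atf6. Without 1 array, the calls of Irf4, Chil3, Itgax, Cdh1 and Pecam1 were each lost at least once (adjusted p of up to 0.105, 0.11, 0.132, 0.113 and 0.0961). With all probe sets tested Itgax (0.0649) and Cdh1 (0.0512) also missed the threshold, as did Cdh1 with its probe sets averaged (0.0742). The part of these cell types in the differences of the members was not tested.

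**Figure D5:**
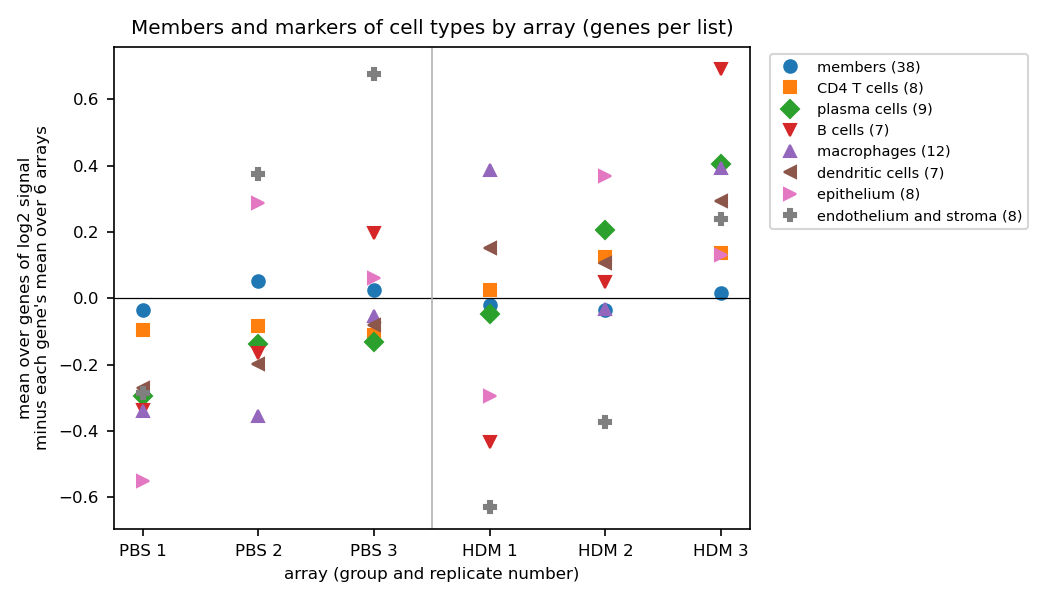
For each array, the mean over a list's genes of the log2 signal minus each gene's mean over the 6 arrays, for the 38 members and 7 lists of cell type markers (number of genes in brackets). The mean over the 38 members stays close to 0. The endothelial and stromal list is highest in PBS replicate 3 and lowest in HDM replicate 1, and the B cell list is highest in HDM replicate 3. Among the members, the 6 sensors and transcription factors, not drawn apart, ranged from −0.25 in HDM replicate 2 to 0.31 in PBS replicate 3.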

How the data were processed

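Values were used on the log2 scale as deposited, 1 per probe set and array; the submitters' processing notes name RMA without a version. Array medians lay between 6.57 and 6.64. Neither a detection call nor a batch label was given in the sources used here, and precision is limited by the number of arrays. Any 2 arrays shared at most 5 identical values.

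Of 33960 probe sets, 23521 had 1 gene symbol, 1814 several and 8625 none here; the brightest by mean over 6 arrays stood for a gene, which mattered for 5 members with several. HDM minus PBS was fitted with limma 3.58.1 under R 4.3.3 (lmFit, eBayes with an intensity trend), two-sided, over 22180 genes with no filter. SEs are limma's, intervals are unadjusted 95% intervals. Members and lists were chosen with earlier results of these data known. All members are accounted for. Of other lists, up to 4 passing genes with the largest difference are named, or the 2 largest where none passed. Picked with their values known were Jchain, Mzb1, Tnfrsf17, Scgb1a1, Cd3e, Cd4, Flt3, Zbtb46, Xcr1, Marco and Itgam. So were genes of other lists named because the block called them, and the members given array by array for that reason.

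What a shared replicate number means is not stated in the labels. Deviations from group means correlated over genes at 0.43, 0.17 and 0.53 for arrays numbered 1, 2 and 3, above the minimum of 0.1 set for pairing; PBS replicate 1 with HDM replicate 2 reached 0.25, above the same-numbered pair 2, whose pairing is thus weakly supported. Deviations from a group mean cancel within the group, so these correlations are not 3 separate checks. By the minimum of 0.1 the numbers count as pairs, and blocked values stand beside results they change. On simulated data for this comparison (22180 genes, 200 changed, 10 runs, no pair effect) the test recovered 29.2% of changes of 0.5 log2 and 81.8% of those of 1, with 4.26% false calls. Alternatives were other variance models, array weights, filters on dim genes, renormalization, other probe set rules, the block, a threshold of 0.1 and leaving out arrays.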

Additional observations from a re-analysis of the deposited data

How the results depend on the processing

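The count of members called depended on the spread model and on the arrays numbered 3. Higher in HDM were 0 in the reported fit, 2 with array weights, 3 with the replicate block, 4 without both arrays numbered 3, 2 at an adjusted p below 0.1, and 0 to 1 without 1 array. Lower were 0 in the reported fit, 1 (Atf4) without the intensity trend, with the robust model, or with either dim filter, 3 with array weights, 5 with the block, 5 without both arrays numbered 3, 2 at 0.1, and 0 to 3 without 1 array. Sdf2l1 and Dnajb9 were called without PBS replicate 3, and Spcs2, Eif2ak3, Atf4 and Dnajb9 without HDM replicate 3. Repeated quantile normalization, median centring, averaged probe sets and all probe sets called 0 members. Over all 22180 genes, 531 higher and 345 lower became 1319 and 1334 with the block and 914 and 923 with array weights. They became 1250 and 1326 without both arrays numbered 3, and 177 to 845 and 41 to 722 without 1 array. The dim filter at the median gave 628 and 557 of the 11090 genes it tested. The cause of these moves was not tested. The members' median was −0.013, between −0.024 and 0.034 without 1 array (the latter without HDM replicate 3), and within its replicate spread of 0.039 otherwise. Of the single values for members, each under an alternative that tested the gene, 614 kept sign and side of the threshold and 36 became calls. Another 30, all of uncalled differences in 13 genes, changed sign. Without 1 array the sign-changing genes ranged from −0.263 to 0.0623 (Ddit3), −0.00277 to 0.0615 (Hsp90b1), −0.0954 to 0.015 (Hyou1), −0.00672 to 0.0741 (Pdia6), −0.0329 to 0.0632 (Sel1l), −0.100 to 0.0446 (Derl1), −0.0102 to 0.138 (Derl2), −0.14 to 0.0579 (Derl3), −0.0925 to 0.0542 (Sec61b), −0.154 to 0.0102 (Ssr1), −0.0339 to 0.000398 (Sec23b) and −0.0102 to 0.232 (Sec24d). Without both arrays numbered 3, Chac1 was −0.0167, Derl1 0.0227, Derl3 0.0574, Hyou1 0.0317 and Sel1l −0.0187. Array weights gave Derl3 0.013 and Sel1l −0.00289, median centring Sel1l −0.000483, repeated quantile normalization Derl1 0.0161, and averaged probe sets Derl2 −0.00435 and Ssr1 0.0832. Without detection calls, signal over background could not be judged.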
